A study of Mus musculus with 2 samples.

Results

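Syndecans and glypicans are the cell-surface carriers of heparan sulfate, and all 10 genes of both families, Sdc1 to Sdc4 and Gpc1 to Gpc6, were followed here in ATDC5 cells given Nell-1. The members were chosen by name, with earlier results of these data known. They are 10 of the 18193 genes that a probe set with exactly 1 symbol reads. They were read by 24 of 45037 probe sets, namely every probe set that the platform annotation assigns to exactly 1 symbol equal to a member. ATDC5 is a mouse cell line able to differentiate along the cartilage lineage. The cells of both groups were deprived of serum and then received 10 µg/ml of cycloheximide (CHX), which blocks protein synthesis, for 30 min. The CHX+PBS group then received the PBS vehicle and the CHX+Nell-1 group 100 ng/ml of recombinant human Nell-1, each for 30 min more. Both groups thus carry CHX, and no group without it was analysed here. The comparison was meant to find transcripts that respond to Nell-1 without new protein being made. Each group is 1 array, so the data hold no spread between cultures, no test was possible, and every ratio below compares 2 RNA samples.

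Syndecans span the membrane, carry heparan sulfate chains near the tip of their outer part, and end inside the cell in a short tail that binds PDZ-domain adaptors. Glypicans sit on the outer face of the membrane through a GPI lipid anchor and carry their chains close to it. The chains of both hold growth factors, morphogens and matrix proteins at the cell surface, and in cartilage they shape FGF, hedgehog, BMP and Wnt signalling. Nell-1 itself contains a thrombospondin-type N-terminal module, a kind of module known to bind heparin.

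The values are MAS5 signals, linear intensities per probe set in arbitrary units, scaled to the same trimmed mean of 500.0 on both arrays. The median of the mean signal over all probe sets was 64.3. Below it ratios are unstable, and probe sets above it are called well measured here. As a yardstick for a ratio, the robust SD of all log2 ratios was taken in 10 equal bins of mean signal. It was 0.21 in the brightest bin (mean signals above 1708) and 2.23 in the bin between 13.2 and 23.8. It mixes noise with real differences and is not a replicate error. The chondrocyte markers Sox9 (3375 with PBS and 2577 with Nell-1), Col2a1 (909 and 1206) and Acan (176 and 293) were well measured. Of 13 chondrocyte markers, 8 were. Comp, Hapln1, Matn1, Matn3 and Snorc lay below the median signal. Of 6 fibroblast markers, 5 were well measured. The collagens Col1a1, Col1a2 and Col3a1 had signals from 18359 to 38979. Pdgfrb read 11368 with PBS and 9958 with Nell-1, Pdgfra read 230 and 240, and Thy1 lay below the median signal. Well measured markers of other types numbered 0 of 4 for endothelial cells, 1 of 4 each for skeletal muscle, haematopoietic and epithelial cells, and 2 of 3 for adipocytes. Hypertrophic chondrocyte markers gave 0 of 2 and osteoblast markers 2 of 3, Sp7 (894 with PBS and 1219 with Nell-1) and Alpl (2706 and 3959), at log2 ratios of 0.45 and 0.55. Runx2, Bglap and Spp1 of 6 listed osteoblast markers and Plin1 of 4 listed adipocyte markers were not analysed here.

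With signals as deposited, Sdc2 was the only member with well measured probe sets past 1.5-fold, the filter stated in the series text. Its transcript was lower with Nell-1 on all 3 of its well measured probe sets, by 2.16-fold to 2.60-fold. Syndecan-2 is the syndecan typical of mesenchymal cells such as fibroblasts and skeletal precursors. Probe set 1417011_at read 4827 with PBS and 2171 with Nell-1, for a log2 ratio of -1.15. Probe set 1417012_at read 3871 and 1796, a log2 ratio of -1.11. Probe set 1448545_at read 2968 and 1142, a log2 ratio of -1.38. On each, the CHX+Nell-1 array was the lower one by more than 2-fold. The annotation gives all 3 the same source accession, so they are repeated readings of 1 transcript on the same RNA, not replicates. The remaining probe set, 1431474_at, from another source sequence, lay below the median signal at 40.1 with PBS and 34.5 with Nell-1, for a log2 ratio of -0.22 where the robust SD was 1.49.

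**Figure D1:**
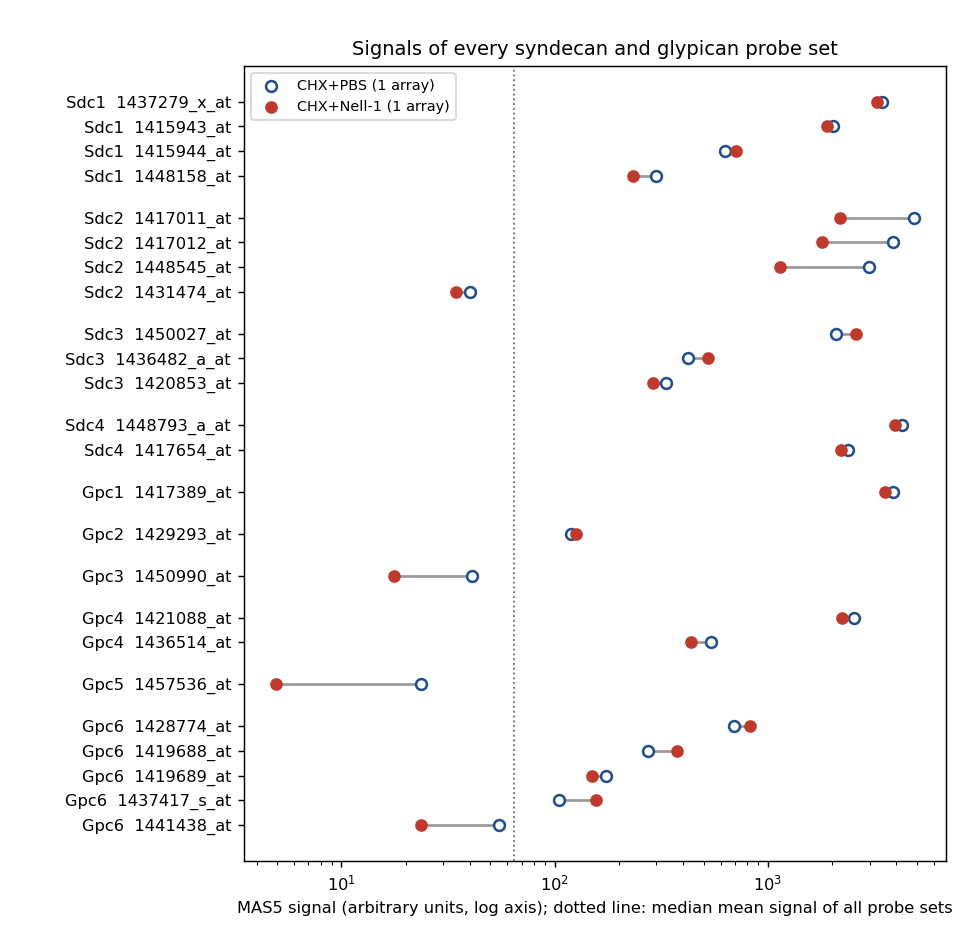
MAS5 signals of all 24 syndecan and glypican probe sets on the CHX+PBS array (open circles) and the CHX+Nell-1 array (filled circles), on a log axis, with 1 array per group and no error bars. The 3 bright Sdc2 probe sets show the widest gaps to the right of the dotted line, which marks the median mean signal of 64.3.

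Differences of this size were rare among bright transcripts. In the brightest bin, 35 of 4504 probe sets (0.777%) were lower by at least 1.5-fold and 7 (0.155%) by at least 2-fold. Sdc2 supplied 3 of those 7, with ranks 2, 3 and 5 from the lowest. The other 4, looked up after the values were seen, were 1 probe set without a gene symbol, Nbl1 (2432 and 1100), which encodes a BMP antagonist, Dusp1 (6875 and 3209), a MAP kinase phosphatase, and Plat (4686 and 2297), tissue plasminogen activator. Of 2086 genes with at least 3 well measured probe sets, 7 (0.336%) were at least 1.5-fold lower on every one of them, and Sdc2 was among these. Because Sdc2 was singled out by its value, these ranks describe it and test nothing. The 24 poly-A control probe sets, which read bacterial RNAs added before labelling, all read lower after Nell-1, by a median log2 ratio of -0.49 with a range from -1.002 to -0.20. All 3 bright Sdc2 ratios lay below that range. The 18 hybridisation controls had a median of -0.18. The part of the control difference in the Sdc2 ratio was not tested. Signal of Actb at the downstream end of the transcript relative to the upstream end was 1.32 with PBS and 1.28 with Nell-1, and that of Gapdh was 0.848 and 0.858.

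The other 3 syndecans did not reach 1.5-fold on any probe set. Sdc4, the syndecan of focal adhesions, gave the closest pair of readings. Its probe set 1448793_a_at read 4267 with PBS and 3936 with Nell-1, and 1417654_at read 2375 and 2206, for log2 ratios of -0.12 and -0.11. Sdc1, best known from epithelia and plasma cells, read 3438 and 3245 on 1437279_x_at and 2018 and 1887 on 1415943_at, for log2 ratios of -0.08 and -0.10. Across these 4 bright probe sets the arrays differed by 1.06-fold to 1.08-fold, less than the robust SD of 0.21 there. The dimmer Sdc1 probe sets pointed in opposite directions, 1415944_at with 626 and 708 (0.18) and 1448158_at with 297 and 233 (-0.35). Probe set 1437279_x_at is of a type that can share probes with other transcripts, and its ratio was close to that of 1415943_at, which is not of that type.

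Sdc3, a syndecan of nerve and of early limb cartilage, was the one syndecan whose brightest probe set was higher with Nell-1. Probe set 1450027_at read 2080 with PBS and 2590 with Nell-1, 1.25-fold higher, a log2 ratio of 0.32. This exceeds the robust SD of 0.21 at that signal, and 430 of 4504 probe sets in the bin were at least as high. Probe set 1436482_a_at read 423 and 524, with a log2 ratio of 0.31. The dimmest, 1420853_at, which shares its source accession with the brightest, read 332 and 291 and pointed the other way at -0.19. The Sdc3 probe sets therefore disagreed in sign.

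Core promoters of the syndecans are shown because the study sought primary response genes, whose promoters often carry short motifs for factors already present in the cell. The sequences are the 100 bases before the RefSeq transcription start in build GRCm38.p6, read 5′ to 3′ on the gene's strand. Capitals mark GC boxes (GGGCGG, the SP1-type motif) and the TATA core (TATAA), each on either strand. The table of promoters held Sdc1, Sdc3, Sdc4, Gpc2, Gpc3, Gpc4 and Gpc5, and had no entry for Sdc2, Gpc1 or Gpc6.
Sdc1, chr12:8771296-8771395, plus strand: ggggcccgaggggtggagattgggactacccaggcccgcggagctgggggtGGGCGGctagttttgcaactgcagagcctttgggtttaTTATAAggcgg
Sdc3, chr4:130792437-130792536, plus strand: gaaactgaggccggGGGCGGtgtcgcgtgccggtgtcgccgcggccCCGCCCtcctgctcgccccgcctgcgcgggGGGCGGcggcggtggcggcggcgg
Sdc4, chr2:164443189-164443288, minus strand: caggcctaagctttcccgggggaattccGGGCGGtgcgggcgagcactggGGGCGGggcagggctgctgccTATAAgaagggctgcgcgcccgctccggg

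In these windows Sdc1 and Sdc4 hold both motifs, and Sdc3 holds GC boxes without a TATA core. The Sdc4 TATA core lies 29 to 25 bases before the start, and that of Sdc1 lies 10 to 6 bases before it. Over the full 250 bases before the start, all 7 members in the table held a GC box, against 32.7% of 32851 promoters of the same length. The Gpc5 window had a G+C content of 51.2% and the other member windows 66% to 76.4%, where the median of all windows was 52.4%. The GC box share was not matched for G+C content. A TATA core at any position was found in 3 of the 7 (Sdc1, Sdc4 and Gpc5) and in 22.8% of all promoters. The Gpc5 match lay 184 to 180 bases before the start, on the opposite strand. None of the 7 held the AP-1 site TGANTCA (6.75% of all promoters), the CRE TGACGTCA (1.55%), the EGR site GCGGGGGCG (2.57%) or a CArG box (1.47%). All motifs were searched on both strands. Such a match is a description of the letters in the window.

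Among glypicans, no well measured probe set reached 1.5-fold with signals as deposited. Gpc1, the broadly expressed glypican, read 3858 with PBS and 3537 with Nell-1, for a log2 ratio of -0.13. Gpc4, linked to Wnt and FGF signalling, read 2537 and 2218 on 1421088_at and 542.5 and 437 on 1436514_at. Its log2 ratios of -0.19 and -0.31 had the same sign and lay within the robust SD at each signal (0.21 and 0.33). Gpc2, a glypican of the developing nervous system, read 119 and 126 on 1429293_at, a log2 ratio of 0.08. A further probe set annotated to both Gpc2 and Gal3st4 read 111 and 72.9, 1.52-fold lower. It was not counted as a Gpc2 reading.

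Gpc6 gave mixed readings on its 5 probe sets. This glypican promotes hedgehog signalling in the growth plate, and its loss shortens the long bones. The brightest probe set, 1428774_at, read 691 with PBS and 821 with Nell-1, for a log2 ratio of 0.25. Probe set 1419688_at read 274 and 373 (0.45), and 1437417_s_at, of a type that can be shared between transcripts, read 105 and 156 (0.57, 1.48-fold higher). With these 3 higher, 1419689_at was lower, at 174 and 149 (-0.22), although it shares its source accession with 1419688_at. The last, 1441438_at, lay below the median signal at 54.6 and 23.7. Under median centring, loess or quantile normalization 1437417_s_at passed 1.5-fold, which gives 1 higher and 6 lower probe sets in place of 0 and 6.

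Gpc3 and Gpc5 were each read by 1 probe set below the median signal. Gpc3, an inhibitor of hedgehog signalling whose loss causes overgrowth, read 40.9 with PBS and 17.7 with Nell-1. Gpc5 read 23.6 and 4.92. Their log2 ratios of -1.21 and -2.27 pass 1.5-fold, as does that of the dim Gpc6 probe set (-1.20). In the signal bins of these 3 probe sets, however, 37.1%, 41.9% and 33.1% of all probe sets were lower by at least 1.5-fold. With every signal raised to at least the 25th percentile of the mean signal (17.9), the Gpc5 ratio became -0.41, short of 1.5-fold. In the RefSeq order of protein-coding genes, Gpc3 and Gpc4 are neighbours on chromosome X, and Gpc5 and Gpc6 on chromosome 14. In each pair 1 gene was well measured and its neighbour lay below the median signal on both arrays.

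**Figure D2:**
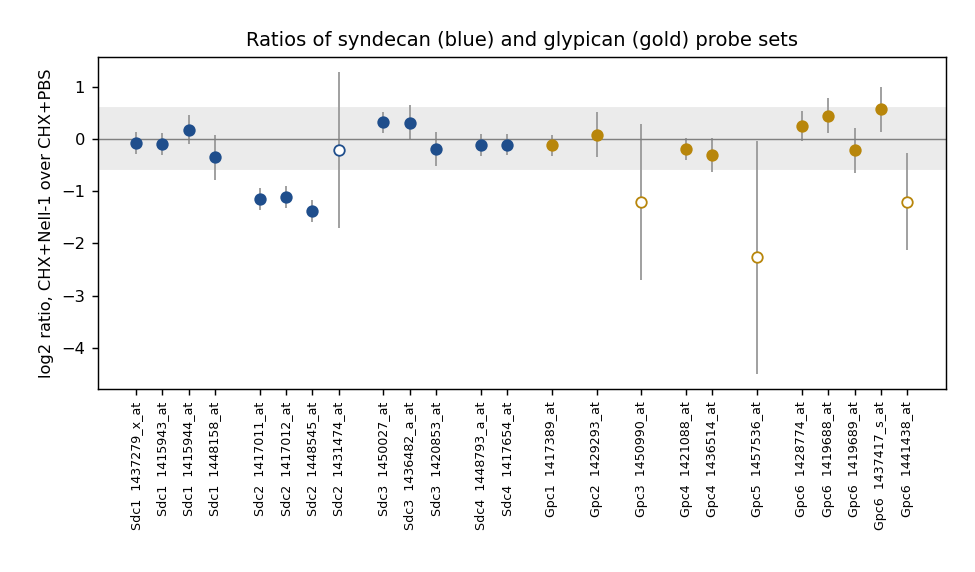
Log2 ratio of CHX+Nell-1 over CHX+PBS for each syndecan (blue) and glypican (gold) probe set, filled where the mean signal was at or above the median and open below it. Vertical lines are plus and minus the robust SD of all probe sets of similar signal, not a replicate error, and the grey band spans 1.5-fold in either direction. With signals as deposited, the 3 filled points that leave the band belong to Sdc2; a Gpc6 point joins them on the high side under 3 rescalings.

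Over both families, 6 of 24 probe sets were lower with Nell-1 by at least 1.5-fold (background 23.1% of all 45037 probe sets) and none was higher (background 17.5%). This share of lower probe sets is near the background. Of the 20 well measured probe sets, 3 were lower (background 8.48%), all from Sdc2, and none was higher (background 5.97%). The other 17 ranged from -0.35 to 0.57, with 7 above and 10 below 0 and none past 1.5-fold, where 14.5% of well measured probe sets passed in either direction. That share is not matched for signal. The 17 lay in signal bins 7 to 10, bin 10 being the brightest, where the shares were 19.5%, 9.3%, 5% and 2.11%. The median of the 17 was -0.10, and that of all well measured probe sets was -0.03. Of the 10 member probe sets in the brightest bin, the 7 that do not belong to Sdc2 lay between -0.19 and 0.32. Syndecan probe sets had a median of -0.12 and glypican probe sets of -0.19, with all 24 at -0.16 and all probe sets on the array at -0.06. By the brightest probe set of each gene, 3 of 10 genes (Sdc2, Gpc3 and Gpc5) were at least 1.5-fold lower, against 19% of all genes, and none was higher, against 13.1%.

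**Figure D3:**
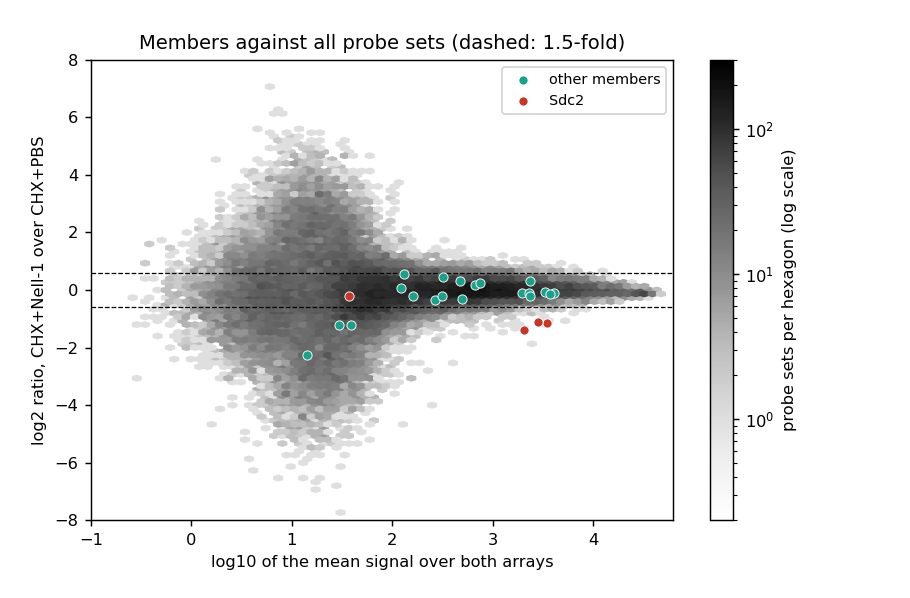
Log2 ratio of CHX+Nell-1 over CHX+PBS against log10 of the mean signal for all 45037 probe sets (grey hexagons, darker for more probe sets), with Sdc2 in red and the other members in green. Dashed lines mark 1.5-fold, and 3 red points lie below the dense band at high signal.

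Genes that build and modify heparan sulfate chains are described next by their brightest probe sets, for which the shares past 1.5-fold over all well measured genes were 4.56% higher and 7.53% lower. Small counts in the lists below are to be read against these shares. A gene counted as neither could still pass 1.5-fold on a dimmer well measured probe set. Besides the genes given below, this held for B3gat3 and Hs3st3b1 (higher), Hbegf (lower) and Mmp16 (both directions). All of these were looked up after the values were seen. The enzymes that start the chain on the core protein were read for 6 of 7 listed genes, with 1 higher, 1 lower and 4 neither. B3galt6, a galactosyltransferase of the linkage region, was 1.56-fold higher (85.2 and 133), and Xylt2, a xylosyltransferase that starts the chain, was 1.68-fold lower (121 and 71.9). Both lay not far above the median signal, where the robust SD was 0.62. All 5 elongation genes were neither. Ext1 and Ext2, which form the chain polymerase, read 4801 and 4508, and 2114 and 2137, for log2 ratios of -0.09 and 0.02.

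Of 15 measured modification genes 2 were higher, 5 lower and 8 neither. Over all genes, dim ones included, the shares were 13.1% higher and 19% lower. Of the 9 well measured modification genes 1 was higher, 2 lower and 6 neither. Glce, the epimerase that turns glucuronic into iduronic acid, read 1241 and 1954 on its brightest probe set, 1.58-fold higher, and stood at 0.54 and 0.42 on the other 2. Ndst2, an N-deacetylase and N-sulfotransferase, was 1.58-fold lower (754 and 477), and Hs6st1, a 6-O-sulfotransferase, 1.54-fold lower (398 and 259). Hs2st1, the 2-O-sulfotransferase, read 1341 and 1339 on its brightest probe set, 287 and 292 on the next and 217 and 160 on the dimmest well measured one, where the log2 ratio was -0.44. Sulf2, which removes 6-O-sulfate at the cell surface, read 4669 and 4244, and Sulf1 lay below the median signal at 17.3 and 22.9. Xylt1, Ndst1 and Hs3st5 were not analysed here.

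Genes tied to shedding, cleavage and release, an inhibitor among them, gave 1 higher, 2 lower and 7 neither among 10 well measured members. Adam17, a sheddase of syndecans, read 171 and 325 on its brightest probe set, 1.90-fold higher. Its second well measured one read 116 and 163, a log2 ratio of 0.50 that did not reach 1.5-fold. Mmp14, a membrane-bound matrix metalloproteinase that can cleave syndecans, read 11019 and 6852 on its brightest probe set, 1.61-fold lower, and the other 2 stood at -0.37 and -0.35. Notum, an enzyme first described as releasing glypicans from their anchor and now known as a Wnt deacylase, was 1.62-fold lower (124 and 76.6). Its log2 ratio was -0.70 where the robust SD was 0.62. Hpse, encoding heparanase, read 69.2 and 83.6.

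Among cytoplasmic partners and trafficking genes of syndecans, 1 of 14 well measured genes passed 1.5-fold on its brightest probe set. This was Src, lower on both of its probe sets (1017 and 635, and 561 and 374). Sdcbp, encoding the adaptor syntenin that binds the tail of every syndecan, was higher on all 3 well measured probe sets. Its brightest read 4397 and 5479, a log2 ratio of 0.32, and the 2 dimmer ones, at 0.63 and 0.92, passed 1.5-fold. Cask, another PDZ adaptor, was at 0.09 on its brightest probe set, and 1 of its 3 dimmer well measured ones passed 1.5-fold (148 and 226, at 0.61). Pip5k1c, a lipid kinase looked up after the values were seen, read 1077 and 897 on its brightest probe set and was lower past 1.5-fold on a dimmer one (239 and 78.0). On their brightest probe sets, none of 22 well measured genes for making and attaching the GPI anchor of glypicans reached 1.5-fold, and their median log2 ratio was -0.10. A dimmer well measured probe set passed 1.5-fold for Pigu (123 and 42.8) and Pigx (189 and 113), both lower and both looked up after the values were seen.

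Other proteoglycans, not all of them carriers of heparan sulfate, gave 1 higher and 1 lower gene among 9 well measured. Tgfbr3, encoding betaglycan, a membrane co-receptor for TGF-beta, was 2.15-fold lower (308 and 143) on its only well measured probe set, a log2 ratio of -1.11 where the robust SD was 0.43. Smc3, a cohesin subunit gene listed here as a proteoglycan, was 1.71-fold higher on 1 of 2 probe sets (397 and 681) and at -0.02 on the other. The basement membrane proteoglycans Hspg2 (perlecan, 1286 and 1390) and Agrn (agrin, 235 and 210) and the hyaluronan receptor Cd44 (6637 and 5705) did not reach 1.5-fold.

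Of 18 well measured ligands and matrix proteins that bind heparan sulfate, 2 were lower and 16 neither. Wnt5b, a growth plate Wnt, was lower on both of its probe sets (276 and 170, and 201 and 112), and Tgfb2 was lower on its brightest (3179 and 1997). The dimmer Tgfb2 probe sets stood at -0.30, -0.39 and -0.27, short of 1.5-fold. Nell1 itself lay below the median signal. Of 21 well measured receptors that work with these proteoglycans, Itgb1, an integrin subunit, was higher (1830 and 3159). Fzd1, a Wnt receptor, was lower on both of its probe sets (4887 and 3038, and 511 and 284). On their brightest probe sets 19 were neither. Among these 19, a dimmer well measured probe set was lower past 1.5-fold for Itga5 (114 and 54.8) and Fgfr1 (427 and 277). For Egfr (56.6 and 95.8) and Ptprs (90.3 and 138) such a probe set was higher. These dimmer readings were looked up after the values were seen. Over all lists, 113 different genes were well measured, of which 5 were higher and 10 lower on the brightest probe set. These counts are near the 4.56% and 7.53% of all well measured genes. Their median log2 ratio was -0.07, and that of all genes above the median signal -0.03.

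**Figure D4:**
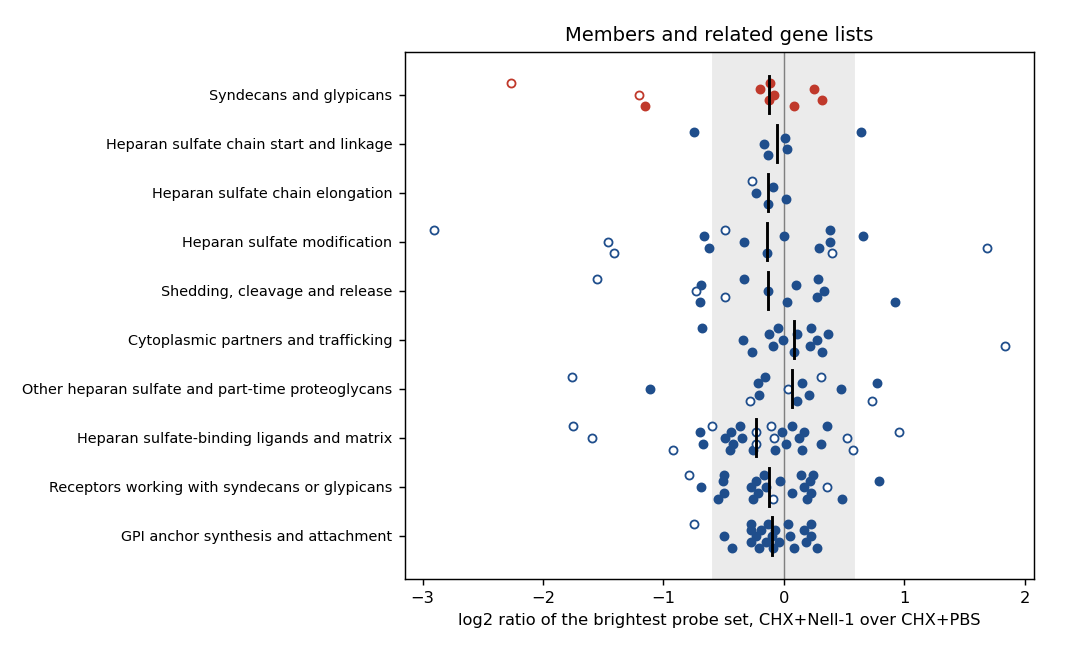
Log2 ratio of CHX+Nell-1 over CHX+PBS on the brightest probe set of each gene, for the 10 members (red) and 9 related gene lists (blue), filled where the mean signal was at or above the median and open below it. Black bars are list medians, which all lie between -0.23 and 0.09, and the grey band spans 1.5-fold in either direction.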

How the data were processed

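Total RNA of 2 ATDC5 samples was hybridised to Affymetrix mouse arrays. The deposited values are linear intensities made with MAS5 in Affymetrix Expression Console, per the submitters' processing notes and the series text. The software version is not given in the sources used here. Of 45101 probe sets, 64 controls were kept apart. Of the rest, 34945 had 1 gene symbol, 932 several and 9160 none. Table columns were matched to samples by sample name.

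The log2 ratio of CHX+Nell-1 over CHX+PBS was computed in Python 3.11.15 with pandas 2.3.3. For counts of genes, the brightest probe set by mean signal stood for the gene. No test was run with 1 array per group. The code was tested on simulated data. Promoters and gene order came from RefSeq tables of GRCm38.p6. The members and the related lists were chosen with earlier results of these data known. Named genes were all members, further genes fixed by name, and up to 4 well measured genes per list past 1.5-fold. Nbl1, Dusp1, Plat, Pigu, Pigx, Pip5k1c, B3gat3, Hs3st3b1, Hbegf, Mmp16, Itga5, Fgfr1, Egfr, Ptprs and markers named were added after their values were seen. Alternatives were rescalings, handling of low signals, a signal filter, probe set type, a 2-fold threshold and the mean over probe sets.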

Additional observations from a re-analysis of the deposited data

How the results depend on the processing

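No direction changed for any of the 24 member probe sets under 5 alternatives (median centring, loess, quantile normalization, the 25th percentile of the signal added, and the same value as a floor). An added value or a floor cannot reverse a direction. Median centring could not either, because it raised each ratio by 0.06 and the negative member ratio nearest 0 was -0.08. All 3 bright Sdc2 probe sets passed 1.5-fold in each alternative. Median centring, loess and quantile normalization each gave 1 higher member probe set (Gpc6) in place of 0. Restricting to probe sets at or above the median signal left 3 lower member probe sets and 1 lower member gene (Sdc2). Under the same filter 5 genes of the related lists were higher and 10 lower, in place of 9 and 22, and a 2-fold threshold left 2 and 8. Counts for single lists moved by over 1.5 times, or to or from 0, in 44 of 162 comparisons. The number of arrays limits precision. Leaving out a replicate was not possible with 1 array per group. No paired analysis was possible because each group holds 1 sample.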
